A study of Homo sapiens with 8 samples.

Results

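The HMGA proteins and the oncofetal RNA-binding genes that act with them were followed here through 6 genes, HMGA1, HMGA2, IGF2BP1, IGF2BP2, IGF2BP3 and LIN28B, of the 18132 genes named on the array. Every probe set that the array's probe table gives to 1 of these symbols was read on its own, which made 18 of 44988 probe sets. The 6 genes were chosen from earlier results of these same arrays, so their fitted differences are described with an error and without a printed p-value. Differences between single arrays carry no error. Calls of the fit are counted for the 6 genes, but nothing is read from them. The cells were H3122, a human lung adenocarcinoma line driven by the EML4-ALK fusion kinase, and its ceritinib-resistant derivatives LR3 and LR2. LR3 was measured after 6 h with 1000 nM ceritinib and untreated, on 2 arrays. LR2 and parental H3122 were each measured after 6 h with 1000 nM crizotinib, after 6 h with 1000 nM ceritinib and untreated, on 3 arrays each. All 3 lines carry EML4-ALK according to the labels, both agents inhibit ALK, and every condition had 1 array. Each resistant line is a single derivative. The labels do not say whether it was cloned, and no LR3 crizotinib array was analysed here.

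HMGA1 and HMGA2 are small chromatin proteins whose AT-hooks hold the minor groove of A/T-rich DNA and bend it for other factors. IGF2BP1, IGF2BP2 and IGF2BP3 bind messenger RNAs through KH domains, many of them at N6-methyladenosine (m6A), and protect them from decay. LIN28B blocks the maturation of let-7 microRNAs, and let-7 in turn represses HMGA2, LIN28B and the IGF2BP messages, so that these genes are abundant in the fetus and in many tumours and scarce in most adult tissue. In mouse embryos, HMGA2 is known to promote transcription of the IGF2BP2 gene.

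The let-7 sequences are shown because they are the shared repressor that joins most of these genes. In RefSeq (GRCh38.p14), 9 distinct mature let-7 and miR-98 sequences from 12 loci share the seed GAGGUAG, which stands in capitals below at bases 2 to 8. These microRNAs were not measured here.
let-7a-5p: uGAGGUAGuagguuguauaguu
let-7b-5p: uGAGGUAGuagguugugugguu
let-7d-5p: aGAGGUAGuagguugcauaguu
miR-98-5p: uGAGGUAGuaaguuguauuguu
The 4 printed sequences differ outside the seed, and let-7d-5p also at its first base.

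The promoters of the paralogs IGF2BP2 and IGF2BP3 are shown because the paralogs differed in how far LR3 lay below parental cells, with IGF2BP2 the further. Both are RefSeq entries in GRCh38.p14 on the minus strand at the annotated start of the gene, printed 5′ to 3′ on the gene's strand. Capitals mark runs of 6 or more letters that are each A or T, which read the same class of letters on both strands.
IGF2BP2, chr3:185824993-185825292: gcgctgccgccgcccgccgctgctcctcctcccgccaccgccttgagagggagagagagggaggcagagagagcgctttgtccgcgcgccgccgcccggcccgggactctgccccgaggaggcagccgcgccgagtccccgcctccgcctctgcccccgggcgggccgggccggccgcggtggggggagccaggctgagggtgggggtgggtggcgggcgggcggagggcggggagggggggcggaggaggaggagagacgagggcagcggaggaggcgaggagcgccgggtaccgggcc
IGF2BP3, chr7:23470442-23470741: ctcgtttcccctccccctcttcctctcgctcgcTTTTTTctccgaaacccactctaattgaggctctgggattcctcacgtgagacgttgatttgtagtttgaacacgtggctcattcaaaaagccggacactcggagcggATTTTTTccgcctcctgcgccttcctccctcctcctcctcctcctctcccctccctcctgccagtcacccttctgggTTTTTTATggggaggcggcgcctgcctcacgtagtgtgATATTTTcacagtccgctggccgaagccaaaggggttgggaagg
The IGF2BP2 window had a GC content of 80.7%, 38 CpG and 0 such runs, and its GC content stood at percentile 98.2 of 35116 promoters of the same length. The IGF2BP3 window had a GC content of 56.3%, 17 CpG and 4 such runs, the longest of 8 letters, and its GC content stood at percentile 44.7. RefSeq holds a second IGF2BP2 entry inside the gene, at chr3:185821093-185821392, which read the other way, with a GC content of 35%, 3 CpG and 7 such runs, the longest of 15 letters, and a GC percentile of 4.66. The deposited values do not say which start these cells use. A run of this kind was present in 61.2% of all these promoters. RefSeq entries were matched for 4 of the 6 genes, HMGA1, IGF2BP2, IGF2BP3 and LIN28B.

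Values are log2 probe set signals, in which a difference of 1 is a factor of 2. Signals of different probe sets cannot be set against each other as amounts of RNA. A probe set was tested when it exceeded 5.36, the 50th percentile of all values, in at least 2 arrays, which held for 23773 probe sets of 10527 genes. Of the 18 member probe sets, 7 passed, 3 of HMGA1, 1 of HMGA2, 1 of IGF2BP2 and 2 of IGF2BP3. The other 11 did not. Array medians lay between 5.31 and 5.36, apart from 5.46 in the ceritinib array of LR2. All 8 epithelial markers were tested, with EPCAM at 12.2 to 12.5, and NKX2-1, a lung lineage factor, lay at 10.4 to 11.3. Of the other lung lineage markers, NAPSA lay at 6.78 to 7.31, SFTPC at 6.01 to 6.27 and SFTPB at 5.40 to 5.58, close to the floor. None of 5 fibroblast markers passed the floor, and of 4 leukocyte markers 1 did, CD68 at 5.13 to 5.44, while PTPRC stayed at 2.46 to 3.05. Of 4 endothelial markers 3 passed, with KDR up to 6.52 and PECAM1 at 4.58 to 4.85. In such bulk RNA, fewer expressing cells and less RNA per cell cannot be told apart.

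HMGA2 was the most variable member. Probe set 11740656_a_at read 4.74 with ceritinib and 5.24 untreated in LR3. In LR2 it read 3.89 with crizotinib and 6.31 with ceritinib, against 6.60 untreated. In parental cells it read 5.10 with crizotinib and 5.18 with ceritinib, against 8.16 untreated. Only the untreated parental array and the ceritinib and untreated arrays of LR2 were above the floor, so 5 of the 8 values lie where array signal is compressed and folds against them may be understated. Over arrays that differ in agent, HMGA2 averaged 4.99 ± 0.35 in LR3 (SD, n = 2), 5.60 ± 1.49 in LR2 (SD, n = 3) and 6.15 ± 1.74 in parental cells (SD, n = 3). These SDs hold the differences between agents and are no spread between replicates. The LR3 average also lacks a crizotinib array.

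**Figure D1:**
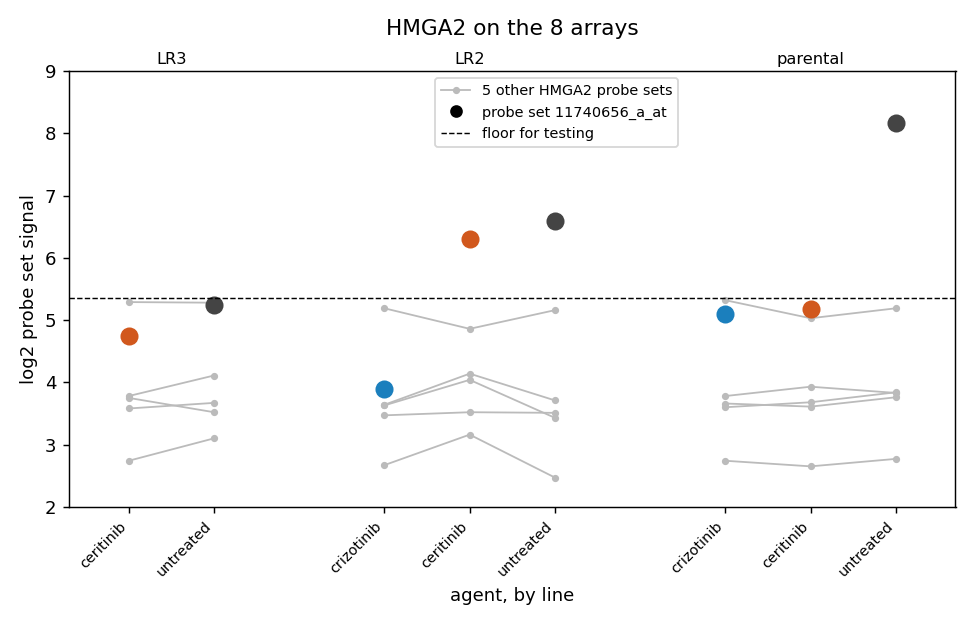
HMGA2 on the 8 arrays, with log2 probe set signal on the vertical axis and the agent within each line on the horizontal axis. Coloured points are probe set 11740656_a_at, grey points joined by lines are the 5 other HMGA2 probe sets, and the dashed line is the floor of 5.36. The untreated parental array is highest at 8.16, and the LR2 crizotinib array is lowest at 3.89.

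In parental cells both inhibitors went with a much lower HMGA2 signal. Crizotinib left 12.0% of the untreated signal, a difference of -3.06 or 8.34-fold lower, and ceritinib left 12.7%, a difference of -2.98 or 7.89-fold lower. Ordered from the most negative difference, HMGA2 stood 13th with crizotinib and 16th with ceritinib among 23773 probe sets. Decreases of at least 1 log2 unit were seen for 174 probe sets with crizotinib (0.732%) and for 196 with ceritinib (0.824%).

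The 2 inhibitors parted in LR2. Crizotinib left 15.3% of the untreated LR2 signal, a difference of -2.71 or 6.54-fold lower, the 16th most negative of 23773. Ceritinib left 81.8%, a difference of -0.29, and the ceritinib array read 5.35-fold above the crizotinib array of the same line (log2 difference 2.42). That ceritinib-over-crizotinib difference was the 10th highest of all probe sets. The ceritinib array of LR2 was the one with the higher median, and its HMGA2 difference from untreated was -0.42 after quantile normalization. Across all probe sets, 148 probe sets were at least 1 log2 unit lower with crizotinib in LR2 (0.623%) and 4 with ceritinib (0.0168%), and 112 were at least 1 log2 unit higher with ceritinib than with crizotinib (0.471%).

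LR3 had a low HMGA2 signal with and without drug. Ceritinib left 70.7% of the untreated LR3 signal, a difference of -0.50, with both values under the floor. No probe set was lower by 1 log2 unit or more in this pair of LR3 arrays (0 of 23773, 0%). Without drug, LR3 was 7.57-fold below parental cells (difference -2.92), the 8th most negative of all probe sets, and LR2 was 2.95-fold below them (difference -1.56). Decreases of that kind of at least 1 log2 unit concerned 243 probe sets in LR3 (1.02%) and 162 in LR2 (0.681%). Under ceritinib the order was different, since LR2 was 2.19-fold above parental cells (difference 1.13) while LR3 was 0.44 log2 units below them. These are differences between single arrays, so no spread between replicates stands behind them.

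**Figure D2:**
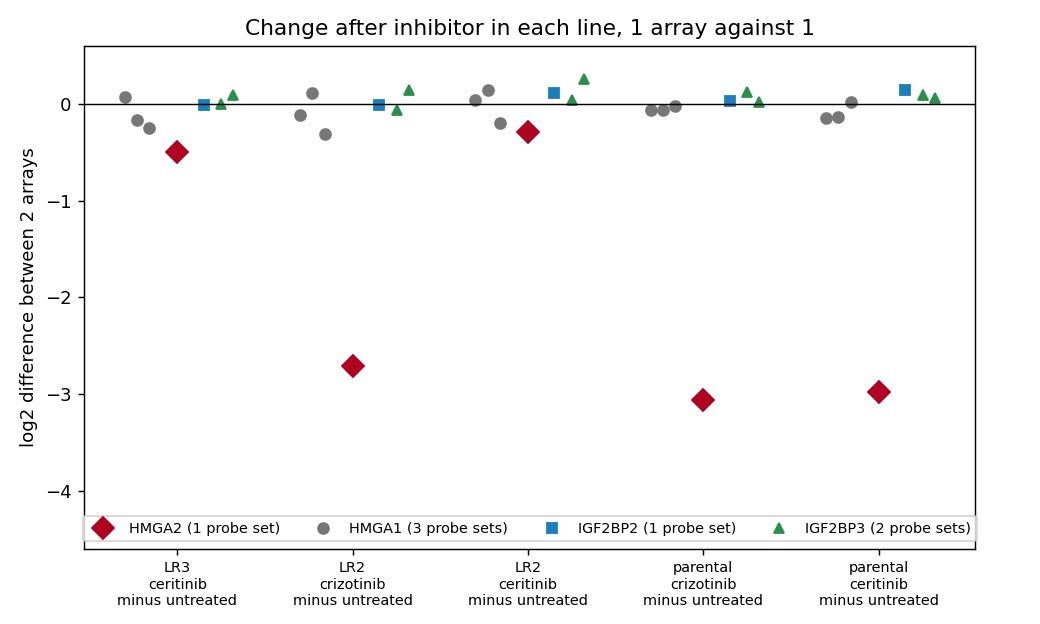
Log2 difference between the inhibitor array and the untreated array of the same line, for the 7 tested member probe sets, with each pair of arrays on the horizontal axis. HMGA2 lies at -2.71 with crizotinib in LR2 and at -3.06 and -2.98 in parental cells, but at -0.50 and -0.29 with ceritinib in LR3 and LR2. The other 6 probe sets stay between -0.31 and 0.26.

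An additive limma fit, with terms for line and agent, put HMGA2 at -1.85 ± 0.54 in LR3 and -0.55 ± 0.46 in LR2, each relative to parental cells (log2 difference ± SE). LR3 minus LR2 was -1.30 ± 0.54, crizotinib minus untreated -2.70 ± 0.54 and ceritinib minus untreated -1.26 ± 0.46. The fit gives 1 line difference for all agents, but those of HMGA2 changed with agent. Between single arrays, LR2 minus parental was -1.56 untreated, 1.13 with ceritinib and -1.21 with crizotinib, where both arrays were under the floor. LR3 minus parental was -2.92 untreated and -0.44 with ceritinib, both ceritinib arrays under the floor. The fitted values average over these, and their errors hold the departures. The LR3 and the crizotinib differences met the call rule of an adjusted p under 0.05, but barely. HMGA2 was chosen from these same arrays, so nothing is read from these calls. The LR3 call was lost in 12 of 15 alternative settings and the crizotinib call in 9 of 13, among them both other scalings of the arrays. The LR3 difference became -2.87 without the parental ceritinib array, -1.15 without the untreated parental array and -1.28 without the untreated LR3 array.

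A fit that pooled both inhibitors gave each line its own response. The HMGA2 response differed from the parental response by 2.52 ± 1.35 in LR3 and 1.52 ± 1.25 in LR2. The untreated LR3 signal was already under the floor at 5.24, and no array read below 3.89 on this probe set. A loss as large as the parental one may not have been measurable there, so no comparison of responses is read from the LR3 value. In LR2 the error was nearly as large as the difference. No probe set of the 23773 was called in this comparison, neither for LR3 (0%) nor for LR2 (0%). An unadjusted p under 0.05 in limma was found for 1115 and 585. Both counts are below the share of 0.05 that this threshold would give without any difference. Taken by agent, the LR2 response to ceritinib differed from the parental one by 2.69, with the parental ceritinib array under the floor. The crizotinib arrays of LR2 and parental cells were both under the floor, where signal may be compressed. The sizes of those 2 responses may be understated and are not compared.

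The other 5 HMGA2 probe sets did not follow this course. All of them stayed between 2.47 and 5.32, under the floor on every array. The brightest, 11761705_a_at, read 5.29 with ceritinib and 5.28 untreated in LR3, 5.19, 4.86 and 5.16 with crizotinib, with ceritinib and untreated in LR2, and 5.32, 5.03 and 5.19 in the same order in parental cells. By the probe table, 11740656_a_at and 11732032_a_at were designed on RefSeq transcript records and the other 4 on GenBank cDNA or EST records. The HMGA2 pattern therefore rests on 1 probe set.

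HMGA1, the paralog of HMGA2 that is more widely expressed in growing cells, varied little. Probe set 11747361_x_at read 9.89 and 9.82 with ceritinib and untreated in LR3. It read 9.58, 9.73 and 9.69 with crizotinib, with ceritinib and untreated in LR2, and 9.88, 9.79 and 9.94 in the same order in parental cells. All 3 LR2 arrays were lower than every parental array. The same held for 11753817_x_at, at 6.70, 6.81 and 7.01 in LR2 against 7.06, 7.10 and 7.08 in parental cells, again with crizotinib, with ceritinib and untreated. On this probe set LR3 read 6.98 with ceritinib and 7.23 untreated, around the parental values. For the third, 11753571_x_at, LR3 read 7.35 and 7.52, LR2 7.14 to 7.28 and parental cells 7.23 to 7.36, and both resistant lines overlapped parental cells. LR2 arrays all lay under all parental arrays in 12.7% of the 23773 probe sets.

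Fitted differences of HMGA1 from parental cells were -0.20 ± 0.08, -0.24 ± 0.09 and -0.07 ± 0.08 in LR2, in the order just given, and -0.03 ± 0.09, -0.01 ± 0.10 and 0.15 ± 0.10 in LR3. None was called. Every HMGA1 probe set bears the suffix by which the manufacturer marks probes that may cross-hybridize, so sequences related to HMGA1 may add to these signals.

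IGF2BP2, the family member that adult tissues keep, was lower in LR3. Probe set 11757763_s_at read 7.88 with ceritinib and 7.89 untreated in LR3. In LR2 it read 8.65 with crizotinib, 8.77 with ceritinib and 8.66 untreated, and in parental cells 8.74, 8.85 and 8.71 in the same order. LR3 stood apart from both other lines on every array, and the values of LR2 and parental cells overlapped. LR3 arrays all lay under all parental arrays in 22.2% of the 23773 probe sets, and the share for LR3 against LR2 was not counted. Within each line the arrays lay close together whatever the agent.

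Averages over arrays that differ in agent were 7.89 ± 0.01 in LR3 (SD, n = 2), 8.69 ± 0.07 in LR2 (SD, n = 3) and 8.77 ± 0.07 in parental cells (SD, n = 3). As for HMGA2, these SDs are no spread between replicates. The fitted IGF2BP2 difference was -0.90 ± 0.08 for LR3 minus parental, -0.83 ± 0.08 for LR3 minus LR2 and -0.07 ± 0.07 for LR2 minus parental. The first was called in 13 of 14 alternative settings, all but the matched pairs, and the second in 14 of 14. Those settings refit the same arrays from which IGF2BP2 was chosen, so nothing is read from these calls. The second IGF2BP2 probe set, 11741712_a_at, stayed between 3.01 and 3.39 and shows nothing of either difference. The IGF2BP2 pattern therefore rests on 1 probe set, which bears the suffix _s_at. Whether other transcripts add to its signal was not tested. In parental cells, where HMGA2 signal was far lower after 6 h of either drug, IGF2BP2 read 8.74 with crizotinib and 8.85 with ceritinib, against 8.71 untreated. Whether HMGA2 acts on IGF2BP2 in these cells was not tested.

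IGF2BP3 showed a small difference of the same sign. Probe set 11722917_s_at read 7.65 on both LR3 arrays, 7.87 to 7.97 in LR2 and 7.80 to 7.92 in parental cells. Probe set 11756285_s_at read 8.99 with ceritinib and 8.90 untreated in LR3, 8.98 to 9.24 in LR2 and 9.07 to 9.13 in parental cells. LR3 lay below parental cells without overlap in both, and overlapped LR2 in the second. Such a separation of LR3 from parental cells was common, in 22.2% of all probe sets. Both IGF2BP3 probe sets bear the suffix _s_at, and whether other transcripts add to their signals was not tested.

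The fitted IGF2BP3 differences were -0.22 ± 0.09 and -0.15 ± 0.09 for LR3 minus parental, -0.27 ± 0.09 and -0.17 ± 0.09 for LR3 minus LR2, and 0.05 ± 0.07 and 0.02 ± 0.08 for LR2 minus parental. None was called.

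**Figure D3:**
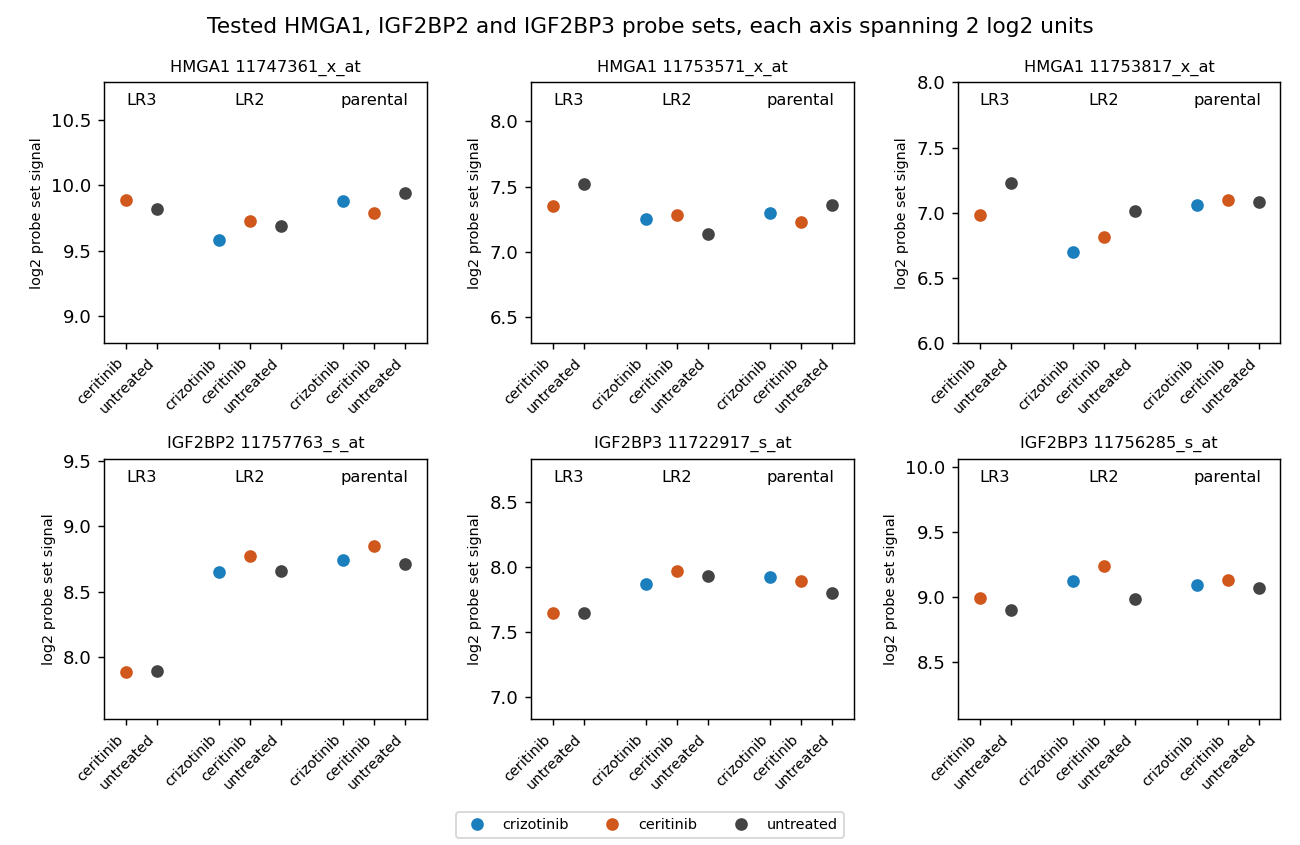
Log2 signal of the 6 tested HMGA1, IGF2BP2 and IGF2BP3 probe sets on the 8 arrays, one panel a probe set, each vertical axis spanning 2 log2 units; the agent within each line runs along the horizontal axis. IGF2BP2 reads 7.88 and 7.89 in LR3 and 8.65 to 8.85 elsewhere, and the other panels are nearly flat.

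IGF2BP1, which is largely confined to fetal tissue and tumours, and LIN28B were under the floor throughout. The 3 IGF2BP1 probe sets stayed between 2.63 and 4.76 and the 2 LIN28B probe sets between 2.62 and 4.84. Over the 11 untested member probe sets, the highest and lowest of the 8 arrays were 0.29 to 0.69 log2 units apart. At this signal neither presence nor absence of the messages can be read.

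Among the 7 tested member probe sets, the fit called 2 for LR3 minus parental, where 18.9% of all 23773 probe sets were called, and 0 for LR2 minus parental, where 21.3% were called. LR3 minus LR2 called 1 of 7, against 17.6% of all. Crizotinib minus untreated called 1 of 7, against 2.09% of all. Ceritinib minus untreated called 0 of 7 and 0% of all, although 4044 probe sets had an unadjusted p under 0.05 in limma and 125 were called with a prior that follows intensity. Since the members were chosen from these arrays, nothing is read from these counts. The comparisons also share the parental arrays or the untreated arrays.

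**Figure D4:**
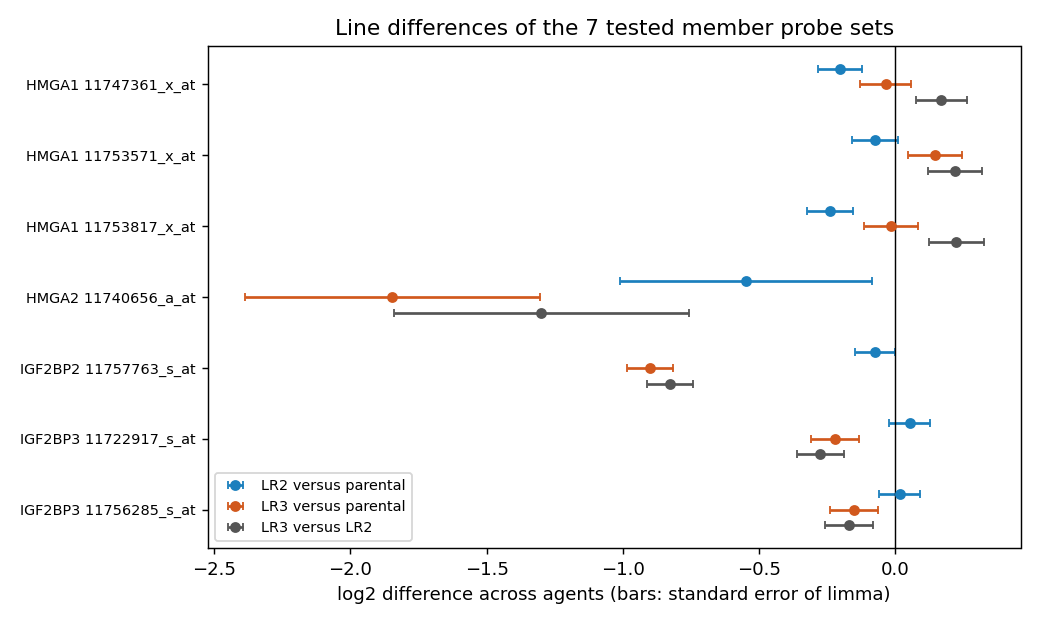
Log2 difference between lines for the 7 tested member probe sets on the horizontal axis, from the additive limma fit, with bars of 1 standard error. HMGA2 lies at -1.85 ± 0.54 for LR3 versus parental and has the widest bars, IGF2BP2 lies at -0.90 ± 0.08, and the HMGA1 and IGF2BP3 points stay within 0.3 log2 units of 0. The HMGA2 points average over line differences that changed with agent.

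The genes whose profile was most like that of HMGA2 over the 8 arrays, among 1024 candidates with a range of at least 1 log2 unit, were TRIB2 (Pearson r = 0.97), CA8 (r = 0.97) and STC2 (r = 0.96). TRIB2 is a pseudokinase, CA8 a carbonic anhydrase-related protein and STC2 a secreted glycoprotein. TRIB2 differed from untreated by 0.10 with ceritinib in LR3, by -1.51 with crizotinib and -0.30 with ceritinib in LR2, and by -1.30 and -1.10 with the same agents in parental cells. The corresponding CA8 differences were 0.13 in LR3, -1.27 and 0.13 in LR2, and -1.09 and -1.26 in parental cells. For STC2 they were -0.58 in LR3, -0.84 and -0.16 in LR2, and -0.89 and -0.95 in parental cells. All 3 genes were lower with crizotinib in both lines measured and with ceritinib in parental cells. With ceritinib, TRIB2 and STC2 were both below their untreated values in LR2, while in LR3 TRIB2 was slightly above and STC2 below. CA8 was under the floor on both LR3 arrays, on the LR2 crizotinib array and on both treated parental arrays. The median of the LR2 ceritinib array was 5.46, against 5.34 untreated. Nothing is therefore read from the small CA8 differences with ceritinib in the resistant lines.

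For IGF2BP2 the most similar profiles were those of PRKD3, a protein kinase D (r = 0.997), LDLRAD3, a receptor of the low-density lipoprotein receptor family (r = 0.994), and STOM, a membrane scaffold protein (r = 0.990). For LR3 minus parental these 3 genes had fitted differences of -0.89 ± 0.09, -1.01 ± 0.09 and -1.37 ± 0.09, set beside -0.90 ± 0.08 for IGF2BP2. LDLRAD3 read 4.63 with ceritinib and 4.57 untreated in LR3, both under the floor. The 8 arrays share their lines, and the genes were picked for their likeness, so no test goes with these correlations.

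**Figure D5:**
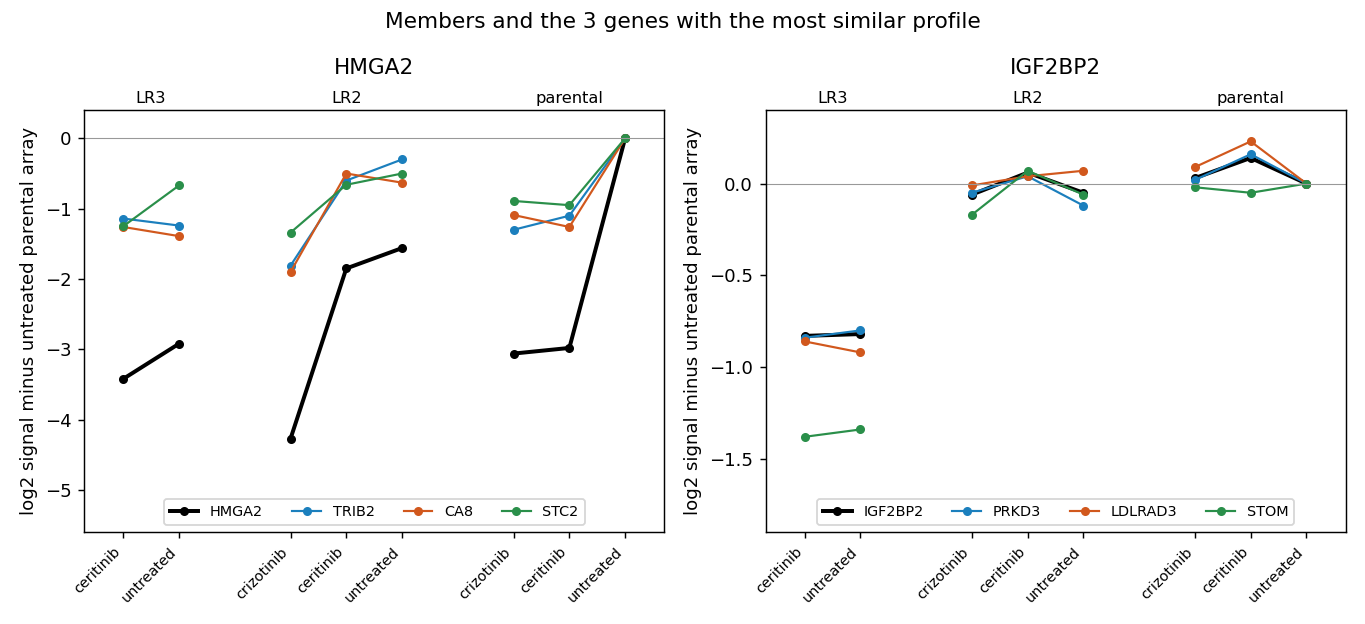
HMGA2 and IGF2BP2 with the 3 genes of most similar profile, as log2 signal minus the untreated parental array on the vertical axis and the agent within each line on the horizontal axis. In the HMGA2 panel all 4 genes dip with crizotinib in LR2 and in both treated parental arrays, and in the IGF2BP2 panel all 4 are low on both LR3 arrays.

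Genes that process let-7 were called in both directions. Of 12 tested genes for let-7 biogenesis and turnover, 2 rose and 0 fell in LR2, 0 rose and 1 fell in LR3, each relative to parental cells, and 1 rose and 3 fell in LR3 relative to LR2. The medians were 0.13, 0.06 and -0.09 log2 units. Over all 10527 genes, 21.1% were called in LR2, 19.6% in LR3 and 18% between LR3 and LR2, with medians of 0.02, 0.01 and -0.02. Higher and lower calls over all genes numbered 1269 and 949 in LR2, 886 and 1175 in LR3, and 694 and 1205 in LR3 relative to LR2, so each list is read beside that lean. The lean itself moved with the scaling. It was 1112 and 1336 in LR2, 1030 and 1328 in LR3, and 1015 and 1143 between them with quantile normalization, and 1228 and 1219, 1385 and 1156, and 1201 and 1055 with median centring. For the let-7 biogenesis list, 1 rose and 1 fell in LR3 with quantile normalization, and 2 rose and 1 fell with median centring. DICER1, which cuts precursor microRNAs to their mature length, read 8.19, 8.64 and 8.44 with crizotinib, with ceritinib and untreated in LR2, against 7.79, 7.78 and 8.08 in parental cells. Its difference was 0.54 ± 0.11 (limma adjusted p = 0.012). PRKRA, a partner of DICER1, rose by 0.33 in LR2, a call lost in 6 of 15 alternative settings. KHSRP, which aids let-7 maturation, fell by 0.34 in LR3, a call kept in 6 of 14 alternative settings. TUT4, which tags let-7 precursors with uridine on behalf of LIN28, was lower in LR3 than in LR2 (-0.53 ± 0.11, limma adjusted p = 0.0157). Its LR3 arrays read 5.17 with ceritinib and 5.15 untreated, both under the floor.

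Genes described as let-7 targets moved in both directions. Of 19 tested, 4 rose and 1 fell in LR2, 2 rose and 2 fell in LR3, and 1 rose and 5 fell in LR3 relative to LR2, with medians of 0.17, -0.09 and -0.11. CDK6, a cell cycle kinase, read 6.95, 7.11 and 7.06 in LR2 against 6.26, 6.20 and 6.43 in parental cells, with crizotinib, with ceritinib and untreated (difference 0.74 ± 0.08, limma adjusted p = 0.000903). CDC25A, a phosphatase that activates cyclin-dependent kinases, rose by 0.83 ± 0.22 in LR2. That call was lost in 4 of 14 settings, and the CDC25A difference ranged from 0.46 to 1.07. TGFBR1, the type I TGF-beta receptor, read 7.92 with ceritinib and 7.90 untreated in LR3 and 8.71 to 8.85 in parental cells. It fell by 0.83 ± 0.09 relative to parental cells (limma adjusted p = 0.00128), and LR3 minus LR2 was -1.01 ± 0.09. PLAGL1, an imprinted zinc finger factor, fell by 0.70 ± 0.10 in LR3, where it read 5.22 with ceritinib and 5.05 untreated, both under the floor. PLAG1, a growth-promoting zinc finger factor that is also on the oncofetal list, was the 1 let-7 target called with crizotinib (0.69 ± 0.12, limma adjusted p = 0.0431), a call kept in 5 of 13 settings.

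Of 11 tested messages described as bound by IGF2BP proteins, 3 rose and 0 fell in LR2, 1 rose and 3 fell in LR3, and 0 rose and 3 fell in LR3 relative to LR2. The medians were 0.04, 0.18 and -0.13. With median centring 3 rose and 2 fell in LR3, so the balance of this list there depends on the scaling. The 3 lines did not overlap in CD44, the hyaluronan receptor. LR3 arrays all lay under all parental arrays in 22.2% of the 23773 probe sets. The shares for LR2 above parental cells and for LR3 against LR2 were not counted. CD44 read 7.40 with ceritinib and 7.26 untreated in LR3. It read 8.51, 8.69 and 8.43 with crizotinib, with ceritinib and untreated in LR2, against 7.92, 7.97 and 7.75 in parental cells. The CD44 differences were -0.55 ± 0.09 for LR3 (limma adjusted p = 0.00513) and 0.66 ± 0.07 for LR2 (limma adjusted p = 0.000961), both from parental cells, and -1.21 ± 0.09 for LR3 minus LR2. CTNNB1, beta-catenin, was lower in LR3 than in LR2 (-0.44 ± 0.10), a call lost in 6 of 14 settings.

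SOX2, a stem cell transcription factor on this list and on the oncofetal one, read 9.69 with ceritinib and 9.61 untreated in LR3, against 11.26 and 9.91 in parental cells. Its LR3 difference of -0.88 ± 0.24 (limma adjusted p = 0.0389) was kept in 6 of 15 alternative settings and ranged from -1.28 to -0.46.

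The machinery of the m6A mark showed small differences. Of 16 tested writers, erasers and other readers, 3 rose and 1 fell in LR2, 1 rose and 2 fell in LR3, and 0 rose and 1 fell in LR3 relative to LR2, with medians of 0.03, 0.03 and -0.08. With median centring 1 rose and 1 fell in LR3 relative to LR2. RBM15B, a writer subunit, fell by 0.56 ± 0.09 in LR3 (limma adjusted p = 0.00571). PRRC2A, a reader, rose by 0.48 ± 0.09 in LR3, with 0.33 in LR2, and WTAP, a writer subunit, fell by 0.33 in LR2.

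Other RNA-binding regulators of message stability and translation included ZFP36L1, the gene of these lists with the largest called difference of LR3 from parental cells. Of 26 tested, 2 rose and 6 fell in LR3 and 2 rose and 1 fell in LR2, relative to parental cells, and 0 rose and 6 fell in LR3 relative to LR2, with medians of -0.06, 0.04 and -0.14. ZFP36L1, which speeds the decay of messages with AU-rich elements, read 9.60 with ceritinib and 9.48 untreated in LR3. It read 10.35, 10.64 and 10.59 with crizotinib, with ceritinib and untreated in LR2, against 10.87, 10.94 and 11.21 in parental cells. The difference was -1.55 ± 0.11 in LR3 (limma adjusted p = 0.000131) and -0.48 ± 0.09 in LR2 (limma adjusted p = 0.00895), and the lines did not overlap. Arrays all under all parental arrays were found in 22.2% of all probe sets for LR3 and in 12.7% for LR2. ZFP36L2, the paralog of ZFP36L1, rose by 0.50 ± 0.07 in LR2. DHX9, a helicase, fell by 0.60 ± 0.09 in LR3, and CELF1, a binder of GU-rich elements, was lower in LR3 than in LR2 by 0.62 ± 0.09. PUM2, a translational repressor, rose by 0.52 ± 0.10 with crizotinib, a call kept in 3 of 13 settings.

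Among 16 other tested HMG-box and HMGN chromatin proteins, 2 rose and 1 fell in LR2, 1 rose and 2 fell in LR3, and 0 rose and 3 fell in LR3 relative to LR2, with medians of 0.04, -0.04 and -0.04. TOX3 rose by 0.69 ± 0.12 in LR2 (limma adjusted p = 0.00601). SSRP1, a subunit of the histone chaperone FACT, fell by 0.48 ± 0.08 in LR3, and HMGN3, a nucleosome-binding protein, fell by 0.44 ± 0.08 there. HMGN4 fell by 0.32 in LR2.

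Of 15 tested oncofetal and fetal growth genes outside the members, 0 rose and 2 fell in LR2, 1 rose and 3 fell in LR3, and 3 rose and 1 fell in LR3 relative to LR2, with medians of -0.06, -0.20 and -0.04. In LR3, 1 rose and 5 fell with quantile normalization, and 1 rose and 2 fell with median centring. SOX11, a fetal transcription factor, read 6.81, 7.36 and 6.95 with crizotinib, with ceritinib and untreated in LR2, against 8.39, 8.16 and 8.14 in parental cells. It fell by 1.19 ± 0.13 in LR2 (limma adjusted p = 0.00101) and was higher in LR3 than in LR2 by 0.75 ± 0.16. PEG10, an imprinted gene of placental growth, fell by 0.64 ± 0.13 in LR2. GDF15, a secreted stress factor, was higher in LR3 than in LR2 by 0.77 ± 0.20, a call lost in 8 of 15 settings, with a range of 0.53 to 1.02.

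Of 7 tested genes described as regulated by HMGA1 or HMGA2, 2 rose and 1 fell in LR2, 2 rose and 0 fell in LR3, and 1 rose and 1 fell in LR3 relative to LR2, with medians of -0.01, 0.05 and 0.01. PTGS2, the inducible cyclooxygenase, read 7.87 with ceritinib and 8.31 untreated in LR3, against 5.61 and 7.59 in parental cells. Its LR3 difference across agents was 1.41 ± 0.32 (limma adjusted p = 0.0204), with a range of 0.82 to 1.84 and the call lost in 4 of 15 settings. E2F1, a cell cycle transcription factor, rose in both lines, with 0.56 ± 0.08 in LR2 and 0.38 ± 0.09 in LR3. The LR3 call of E2F1 was lost in 9 of 15 settings. IGFBP2, which binds insulin-like growth factors, rose by 0.38 in LR2. With ceritinib no gene of these 8 lists was called, and with crizotinib only PLAG1 and PUM2 were. Several genes stand on more than 1 list, and nothing particular to any list is read from its counts.

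Single arrays carried many of the named list calls. No LR3 call against parental cells was made with matched pairs. Without the LR3 ceritinib array, the calls of KHSRP, PLAGL1, SOX2, CD44, RBM15B, DHX9, SSRP1, HMGN3, PTGS2 and E2F1 against parental cells were lost. Without the untreated LR3 array, those of KHSRP, RBM15B, PRRC2A, SSRP1, HMGN3 and E2F1 were lost, and without the untreated parental array those of KHSRP, PRRC2A, HMGN3 and E2F1. KHSRP, SOX2 and E2F1 were also lost without either crizotinib array, SOX2 and E2F1 without the untreated LR2 array, and KHSRP without the parental ceritinib array.

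For LR2 against parental cells, PRKRA, PRRC2A, WTAP, ZFP36L1, HMGN4 and PEG10 were lost without either crizotinib array. PRKRA, PRRC2A, WTAP, HMGN4 and IGFBP2 were lost without the untreated parental array, and PRKRA and PRRC2A without the parental ceritinib array. Without the LR2 ceritinib array PRKRA, CDC25A, PRRC2A and HMGN4 were lost, and without the untreated LR2 array PRKRA, CDC25A, PRRC2A and WTAP. For LR3 against LR2, TUT4, CTNNB1, SOX11 and GDF15 were lost without either LR3 array. TUT4, SOX11 and GDF15 were lost without the untreated LR2 array, and CTNNB1 and GDF15 without the LR2 ceritinib array or either crizotinib array. The crizotinib calls of PLAG1 and PUM2 were lost without the crizotinib or untreated parental array or any LR2 array, and that of PUM2 also without either LR3 array. The LR2 calls of DICER1, CDK6, CD44, ZFP36L2, TOX3, SOX11 and E2F1 against parental cells were kept in every alternative setting.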

How the data were processed

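Total RNA from 8 cell line samples, 1 per condition, was hybridized to 1-colour expression arrays. The authors deposited 1 log2 signal per probe set and array, made by RMA per the submitters' processing notes. The RMA version, the software and the genome build are not given in the sources used here. Of 49395 probe sets, 102 were controls, 1832 had several gene symbols and 2473 had none in the probe table. The remaining 44988 were kept, and 23773 exceeded 5.36, the 50th percentile, in at least 2 arrays and were tested.

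limma 3.58.1 in R 4.3.3 was fitted to all tested probe sets, with terms for line and agent (3 residual degrees of freedom) or 6 cells of line by inhibitor (2 residual degrees of freedom), and Benjamini-Hochberg adjustment at 0.05. With 1 array per condition, the error comes from departures from these models, and no label says that cultures were repeated. The number of arrays limits the precision. A listed gene was represented by its brightest probe set. From each list and line comparison up to 2 called genes with the largest difference were named, and from each agent comparison up to 1. The members and lists were chosen with earlier results of these data known. The additive fit was run on simulated normal noise with a known LR2 difference of 1 log2 unit in some probe sets. That simulation followed the model of the fit, so it does not check whether the model holds for these arrays. Alternatives covered the floor, scaling, model, prior, probe set class, matched pairs and leaving out each array.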

Additional observations from a re-analysis of the deposited data

How the results depend on the processing

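No fitted member difference that met the call rule changed sign in any alternative. For LR3 versus parental, the 2 member calls became 1 without a floor, with quantile normalization, with median centring, without an agent term, with an intensity-dependent prior, and without probe sets of the suffixes _s_at and _x_at, and 0 with matched pairs. For LR2 versus parental, 0 became 2 with quantile normalization and 1 with median centring. For LR3 versus LR2, 1 became 2 without an agent term and with matched pairs, and 0 without the suffixed probe sets, which hold all tested HMGA1, IGF2BP2 and IGF2BP3. For crizotinib, 1 became 0 without a floor, with quantile normalization, with median centring and with the intensity-dependent prior.

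Over all probe sets, LR2 versus parental gave 3333 calls without an agent term and 3314 without the suffixed probe sets, against 5070. LR3 versus parental gave 2829 without the suffixed probe sets and 0 with matched pairs, against 4483. LR3 versus LR2 gave 2612 and 652 under those settings, against 4195. Crizotinib gave 163 without a floor, 0 with quantile normalization or median centring and 1110 with the intensity-dependent prior, against 496. Ceritinib gave 125 with that prior, against 0.

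Leaving out 1 array at a time gave 2381 to 4633 calls for LR2 versus parental (members 0 to 1), 966 to 4510 for LR3 versus parental (members 1 to 2), 990 to 5268 for LR3 versus LR2 (members 1 to 2), 0 to 2793 for crizotinib (members 0 to 1), 0 to 8 for ceritinib (members 0 to 0) and 0 to 0 for both inhibitor responses. The cause of these shifts was not tested, apart from the fewer probe sets and arrays that a setting leaves. The HMGA2 difference of LR3 from parental cells ranged from -2.87 to -1.15, its crizotinib difference from -3.19 to -2.00, and the IGF2BP2 difference of LR3 from -0.97 to -0.83. The HMGA2 ceritinib difference within LR2 was -0.29 as deposited, -0.42 with quantile normalization and -0.41 with median centring. No paired analysis by replicate was possible because the labels give no replicate numbers. Matched pairs were arrays of the same agent.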

Other observations

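The genes beside HMGA2 and IGF2BP2 in RefSeq order were read after the member values were seen, taking 5 tested genes on each side. Of the 10 neighbours of IGF2BP2, 1 was called lower in LR3 than in parental cells, the translation factor EIF4A2 (-0.34), and 1 higher, the peroxisomal enzyme EHHADH (0.39), with a median of 0.11. An unadjusted p under 0.05 in limma was found for 2 of them. Over all 10527 genes 19.6% were called in that comparison, so nothing is read from the counts of neighbours. Of the 10 neighbours of HMGA2, limma called 0, and 1 had an unadjusted p under 0.05, with a median of 0.02 and a range of -0.13 to 0.36.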
